A study of Mus musculus with 18 samples.

Results

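The genes described here are the HNRNP and SR splicing factors of the mouse heart, taken as every row of the count table whose symbol is Hnrnp or Srsf followed by letters or digits alone. This gave 31 genes of 25731 symbols, 20 of them HNRNP genes and 11 SR genes. The pseudogene Hnrnpa1l2-ps2, which does not match the rule, had at most 2 counts in any library and was left out. The family was chosen by a measured value of 1 gene: Hnrnpa1 had a p-value among the smallest for IR+Decursin against IR, at rank 21 of the 15088 genes tested. Values of that comparison are therefore given as a description with no test, and the tested comparisons are those of each ischemia-reperfusion group with SHAM. Of the 31 genes, 30 passed the filter on low counts, whereas Srsf12, an SR-like gene, was at or near 0 counts in all libraries and was not tested.

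Heterogeneous nuclear ribonucleoproteins (hnRNPs) coat nascent transcripts and often repress the use of nearby splice sites, while SR proteins, named for their serine- and arginine-rich tails, bind exonic enhancers and recruit the spliceosome. The balance between the families sets the choice of many alternative exons, and several members also act in mRNA export, stability and translation. In heart muscle they process transcripts of calcium handling and sarcomere genes, and deletion of Srsf1, Srsf2 or Hnrnpu in mouse heart muscle is known to disturb cardiac splicing and contraction. Many members also limit their own amount through alternative exons that send part of their transcripts to nonsense-mediated decay.

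Total RNA was sequenced from 18 hearts of wild-type adult male C57BL/6 mice at day 7 after surgery, 1 library per animal. The 3 groups of 6 animals were SHAM (surgery alone), IR (ischemia-reperfusion, in which blood flow to the heart is stopped and restored) and IR+Decursin (the same injury with the plant coumarin decursin). The study was set up to ask how decursin alters gene expression after this injury. The labels give no dose, route or timing of decursin, and each of the 3 batches named in the labels holds 1 group, so batch and group cannot be told apart.

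Libraries held 27.5 to 35.0 M counts, and each tested member had at least 225 counts in every library. The library make-up differed between the groups: genes of the mitochondrial genome took 28.4% to 32.8% of SHAM counts, 20.1% to 28.3% of IR counts and 20.9% to 27.5% of IR+Decursin counts. IR 3, IR 4 and IR+Decursin 2 held 14072 to 14232 counts of Xist, the RNA of the inactive X chromosome, against at most 8 in the other 15 libraries, although all animals are labelled male. The non-coding gene Gm26917 took 7.54% of the counts of IR+Decursin 6 and 0.915% of IR 1, against at most 0.166% elsewhere. IR+Decursin 5 and 6 stood apart in their fibroblast markers, as given next. Counts of calls are given below with and without the Xist libraries and, for IR+Decursin, without IR+Decursin 5 and 6, an alternative added after the values were seen.

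Cardiomyocyte markers were abundant in these hearts, with a summed level of 105857 to 123174 counts scaled to a library of 1 M (CPM) in SHAM, 58768 to 80275 in IR and 66995 to 110545 in IR+Decursin. Of 18 such markers, 18 fell in IR with TMM factors, the scaling introduced below, and 12 with library totals. Macrophage markers summed to 520 to 721 CPM in SHAM, 1664 to 3560 in IR and 742 to 2232 in IR+Decursin, and 15 of 16 rose in IR. Fibroblast markers summed to 2545 to 3159, 8976 to 11247 and 3063 to 11451 CPM in the same order, with 11 of 12 higher and 1 lower in IR. The low end of IR+Decursin was IR+Decursin 5 at 3760 and IR+Decursin 6 at 3063 CPM, near the SHAM range, while the other 4 libraries of the group had 7054 to 11451. Col1a1, which encodes a chain of collagen I, was at 280 CPM in IR+Decursin 5 and 118 in IR+Decursin 6, against 80.4 to 128 in SHAM, 1965 to 2800 in IR and 1342 to 2770 in the other IR+Decursin libraries. Proliferation genes summed to 64.5 to 154, 178 to 381 and 89.4 to 360 CPM, and 20 of 20 rose. None of these markers was at 0 in all libraries, and the part of cell make-up in the values of the splicing factors was not tested. In bulk tissue, fewer cells of a type and less RNA per cell cannot be told apart.

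In SHAM hearts the splicing factors were well expressed per length. Their mean FPKM (counts per kilobase of gene and 1 M counts) ran from 4.55 for Hnrnpd to 103 for Hnrnpa2b1, with a median of 19.4 against 2.76 over all genes tested. Hnrnpa2b1 at 103 ± 4.79 FPKM and Srsf5 at 102 ± 14.6 (SD, n = 6) stood first and did not differ beyond their spread. Hnrnpa1 at 69.6 ± 5.76 and Hnrnpk at 63.1 ± 4.03 followed, and Hnrnpab at 45.1 ± 4.01 came next. In IR the 3 leading genes were Srsf5 at 124 ± 15.7, Hnrnpa1 at 116 ± 14.0 and Hnrnpa2b1 at 108 ± 8.11 FPKM, which lie within each other's spread. In IR+Decursin the 3 were Hnrnpa2b1 at 98.4 ± 14.9, Srsf5 at 93.8 ± 12.3 and Hnrnpa1 at 86.0 ± 10.3 FPKM, with ranges that overlap. FPKM values scale to library totals alone, so they are read here within a group and not between groups. In SHAM every library of Hnrnpa1 was below every library of the leading pair.

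In IR against SHAM, 8 members rose and 1 fell at an adjusted p under 0.05 in edgeR's quasi-likelihood test on TMM-scaled counts. TMM scaling sets library sizes on the premise that most genes do not change, and on this scale the median log2 fold change of all genes was -0.00. Of all genes tested, 25.3% were called higher and 21.7% lower. The 26.7% of members called higher is close to the first share, and the 3.33% called lower is below the second. The median member stood at a log2 fold change of 0.10, and 23 of 30 lay above 0, against 49.9% of all genes. Changes were small in this family: the median size was 0.13 on the log2 scale, against 0.32 over all genes. Members also had a higher median FPKM in SHAM, 19.4 against 2.76 over all genes tested, and its part in this difference was not tested. Without the 3 Xist libraries 5 members rose, against 21% of all genes, and 2 fell, against 16.9%.

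Scaling decided how many members were called. With library totals in place of TMM factors, the median of all genes moved to 0.31 and 46.5% of genes were called higher and 7% lower, so that higher genes made up 86.9% of calls instead of 53.8%. On that scale 26 of 30 members rose and 0 fell in edgeR, where all 30 lay above 0 and the lower members at an unadjusted p under 0.05 also numbered 0. The median member was then at 0.41 and the median gene at 0.31, against 0.10 and -0.00 with TMM factors. Leaving the 13 mitochondrially encoded genes out before filtering and scaling, which left 15049 genes tested, gave 5 members higher, against 23.8% of all genes, and 2 lower, against 23.8%.

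**Figure D1:**
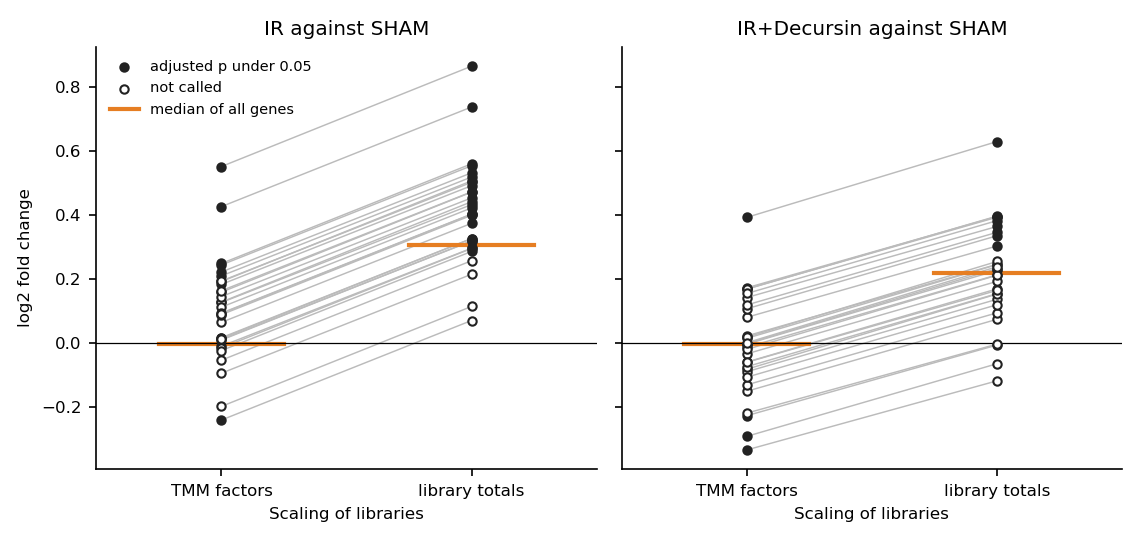
Log2 fold change of each of 30 splicing factors in IR and in IR+Decursin against SHAM, with TMM factors and with library totals; filled points have an adjusted p under 0.05 and orange bars are the median of all genes. Each member moves up by about the amount that the median gene moves, and in IR the calls go from 8 higher and 1 lower to 26 higher and 0 lower.

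The A/B group, the core hnRNPs that bind UAG-containing RNA, held members that moved apart in IR. Hnrnpa1, a shuttling protein that often promotes exon skipping, had 135 CPM in the lowest, 154 in the median and 171 in the highest SHAM library, and 172, 211 and 226 CPM in IR. All 6 IR libraries lay above every SHAM library. The rise was 0.43 ± 0.08 (log2 fold change ± SE, edgeR adjusted p = 0.000134), and it was 0.74 with library totals. It passed the test in 18 of 18 fits that left out 1 library each, with an adjusted p of at most 0.000684. The same 6 IR libraries entered the comparison that put Hnrnpa1 forward, so this rise, its p and its stability are not independent of that choice.

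Hnrnpa2b1, a close paralogue of Hnrnpa1 and a factor in RNA sorting and splicing, moved the other way on the TMM scale. It had 492, 546 and 573 CPM in the lowest, median and highest SHAM library and 423, 451 and 501 in IR. In IR, 5 of 6 libraries lay below every SHAM library. The fall was 0.24 on the log2 scale (SE 0.08, edgeR adjusted p = 0.0185), but with library totals the value was 0.07 (adjusted p = 0.521), so the direction of Hnrnpa2b1 depended on the scaling. The ratio of both genes within a library needs no scaling. Hnrnpa1 had 0.256, 0.283 and 0.318 counts per count of Hnrnpa2b1 in the lowest, median and highest SHAM library, and 0.381, 0.452 and 0.502 in IR. These ranges did not overlap; the ratio was chosen after the values were seen.

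Of the other A/B members, Hnrnpa0, a binder of AU-rich mRNAs of inflammation, rose by 0.25 ± 0.09 (edgeR adjusted p = 0.0352), and Hnrnpab by 0.19 ± 0.07 (adjusted p = 0.0287). Neither call held throughout: leaving out 1 library kept Hnrnpa0 in 10 of 18 fits and Hnrnpab in 12 of 18. Hnrnpa0 was lost without SHAM 1, 2, 3 or 5 or IR 1, 2, 3 or 4, and Hnrnpab without SHAM 1, 2, 5 or 6 or IR 2 or 6. Hnrnpa3 was not called, at 0.13.

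Among the hnRNPs outside the A/B group, Hnrnpul2 and Hnrnpll changed with the least spread. Hnrnpul2, a relative of the nuclear matrix protein hnRNP U, had 88.4, 94.0 and 97.8 CPM in the lowest, median and highest SHAM library and 103, 110 and 120 in IR. The groups did not overlap, and the rise was 0.24 ± 0.05 (edgeR adjusted p = 0.00111). Hnrnpll, known for the exon choice of the leukocyte antigen CD45 in lymphocytes, had 22.2, 23.2 and 25.04 CPM in SHAM and 25.6, 26.8 and 29.3 in IR. All 6 IR libraries of Hnrnpll were above every SHAM library, by 0.21 ± 0.06 (edgeR adjusted p = 0.00651). T and NK cell markers, of which 8 of 8 tested rose in IR, summed to 1.06 to 2.08 CPM in SHAM, 4.52 to 18.4 in IR and 3.46 to 10.1 in IR+Decursin, and their part in the value of Hnrnpll was not tested. Hnrnpf, which binds G-rich tracts, had 63.2, 68.9 and 75.9 CPM in SHAM and 73.0, 79.5 and 93.0 in IR. In IR, 5 of 6 libraries were above every SHAM library of Hnrnpf (0.22 ± 0.07, edgeR adjusted p = 0.00942). Hnrnpul1 rose by 0.18 ± 0.07 (edgeR adjusted p = 0.0309), a call that 12 of 18 fits kept and that was lost without SHAM 1 or 2 or IR 1, 4, 5 or 6.

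Hnrnpm, which binds GU-rich introns, separated the groups without passing the test. It had 80.4, 82.3 and 84.4 CPM in the lowest, median and highest SHAM library and 87.4, 91.4 and 100.1 in IR, so that all 6 IR libraries were higher. Its log2 fold change of 0.16 ± 0.07 still missed the threshold, with an edgeR adjusted p of 0.0591, although it passed in the fit without IR+Decursin 5 and 6 (adjusted p = 0.0253). Hnrnpdl, a relative of the mRNA decay factor Hnrnpd, had 90.4, 100.4 and 129 CPM in SHAM and 83.5, 89.1 and 106 in IR, and the groups overlapped. Its value of -0.20 was not called (edgeR adjusted p = 0.0597), turned to 0.12 with library totals, and passed at -0.25 without the Xist libraries (adjusted p = 0.0445). Hnrnpr, known from mRNA transport in axons, had 42.8, 47.3 and 52.5 CPM in SHAM, 40.2, 44.9 and 47.0 in IR and 35.8, 43.3 and 46.8 in IR+Decursin, ranges that overlap. It was at -0.09 in IR and turned to 0.22 with library totals, without a call on either scale. Hnrnpc, Hnrnpd, Hnrnph1, Hnrnph2, Hnrnph3, Hnrnpk, Hnrnpl and Hnrnpu were not called with TMM factors, at -0.01, 0.13, 0.07, 0.01, -0.01, 0.09, 0.02 and 0.11, and all 8 were called higher with library totals.

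Srsf9 alone, of 10 tested SR genes, was called in IR against SHAM with TMM factors. Over all genes, 25.3% were called higher and 21.7% lower. Srsf9 had the largest change of the 30 members. It is an SR protein with 2 RNA-recognition motifs, close to Srsf1 in structure, and is among the less abundant members at 7.65 ± 0.963 FPKM in SHAM. Its lowest, median and highest SHAM libraries had 8.21, 10.1 and 11.3 CPM, and the IR libraries had 13.3, 14.6 and 16.9. Every IR library was above every SHAM library. The rise was 0.55 ± 0.11 (edgeR adjusted p = 0.000357) and passed in 18 of 18 fits that left out 1 library.

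The cardiac regulators Srsf1 and Srsf2 did not pass with TMM factors, at 0.02 and -0.05. Srsf1 was called higher with library totals. Srsf2 had 102, 119 and 141 CPM in the lowest, median and highest SHAM library and 106, 117 and 122 in IR, ranges that overlap almost fully, and its value turned to 0.26 with library totals (edgeR adjusted p = 0.0565). Srsf3, Srsf7, Srsf10 and Srsf11 were at 0.15, 0.16, 0.09 and 0.19, and Srsf4, Srsf5 and Srsf6 at 0.09, -0.02 and 0.01. None of these passed with TMM factors, and each was called higher with library totals.

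**Figure D2:**
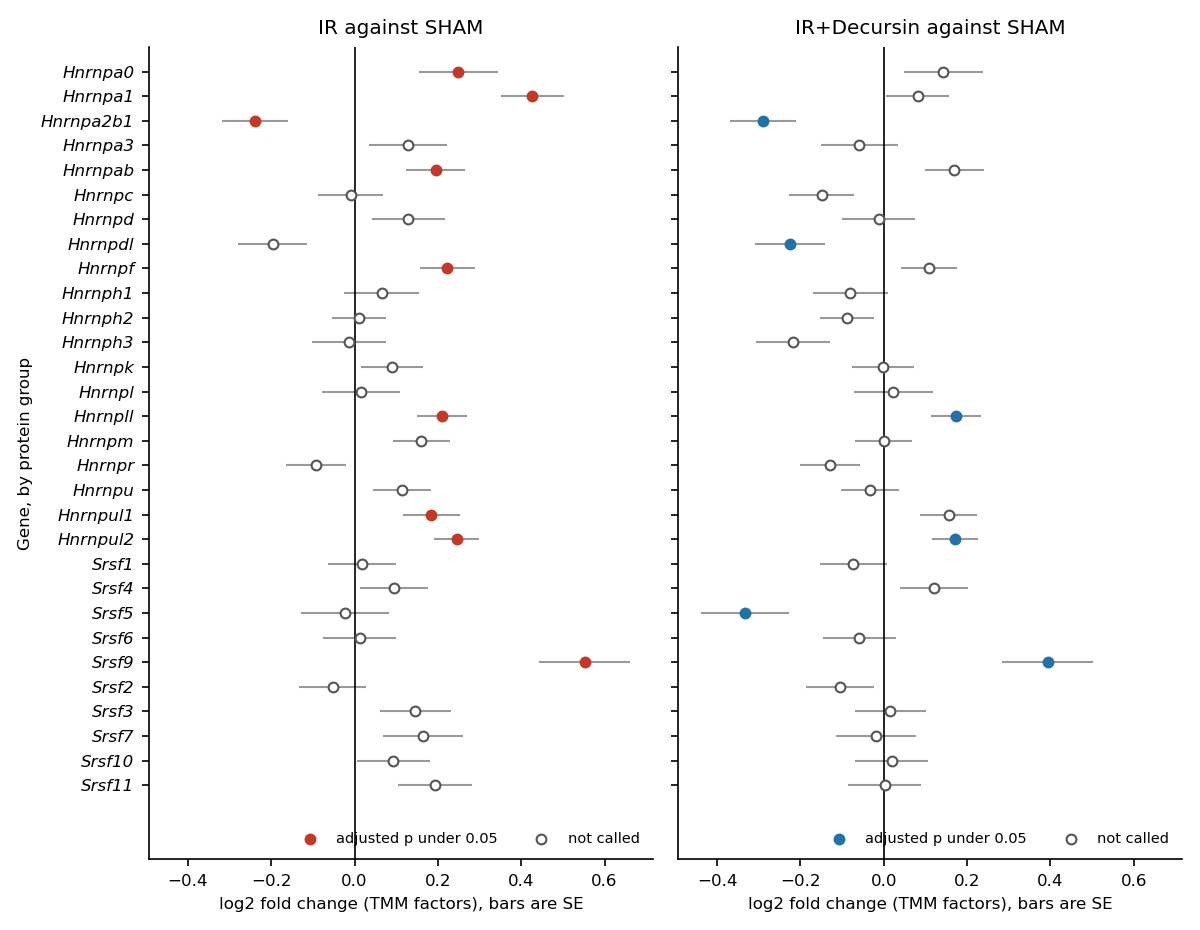
Log2 fold changes of 30 members against SHAM with TMM factors, ordered by protein group, for IR on the left and IR+Decursin on the right; bars are SE and filled points have an adjusted p under 0.05. Hnrnpa1 is at 0.43 in IR and 0.08 in IR+Decursin, while Srsf5 is at -0.02 and -0.33.

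In IR+Decursin against SHAM, 3 members rose and 3 fell, against 17.5% of all genes called higher and 11.8% called lower. The members' median was -0.01 and 13 of 30 lay above 0. Without the Xist libraries 1 member rose, against 15.4% of genes, and 1 fell, against 8.9%. Without IR+Decursin 5 and 6, which left 15434 genes tested, 2 members rose, against 19.8% of genes, and 2 fell, against 15.7%. The members' median was then 0.05, and 20 of 30 lay above 0. Without the mitochondrially encoded genes 2 rose, against 16.4% of genes, and 4 fell, against 13.6%. With library totals 9 members rose, against 31.7% of genes, and 0 fell, against 2.5%, with 0 lower members at an unadjusted p under 0.05 in edgeR. The median member was then at 0.22, as was the median gene. This comparison shares its SHAM libraries with the first, so the values are set side by side and are not independent.

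Of the genes that rose in IR, Srsf9, Hnrnpul2 and Hnrnpll were also called higher in IR+Decursin. These calls did not all hold without the Xist libraries, where 1 member was called higher, against 15.4% of genes. Srsf9 had 10.3, 14.1 and 15.1 CPM in the lowest, median and highest IR+Decursin library, and 4 of 6 were above every SHAM library. It was 0.39 ± 0.11 above SHAM (edgeR adjusted p = 0.0108) and passed in 18 of 18 fits with 1 library left out, and without IR+Decursin 5 and 6 it was at 0.53 (adjusted p = 0.000310). Hnrnpul2 had 102, 104 and 111 CPM and Hnrnpll 25.6, 25.9 and 28.7, and for both all 6 libraries were above every SHAM library. Their rises were 0.17 ± 0.05 (edgeR adjusted p = 0.0249) and 0.17 ± 0.06 (adjusted p = 0.0340). Hnrnpul2 was lost without SHAM 1, SHAM 2, IR 1 or IR+Decursin 4, and Hnrnpll in 7 of 18 fits, those without SHAM 1, 2, 5 or 6, IR 1 or IR+Decursin 1 or 6. Without IR+Decursin 5 and 6 Hnrnpul2 passed, and Hnrnpll, at 0.18, did not (edgeR adjusted p = 0.0598).

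Hnrnpa1 was not called in IR+Decursin with TMM factors. Its lowest, median and highest libraries had 144, 165 and 172 CPM, a range that overlaps SHAM, and the log2 fold change was 0.08 ± 0.08 (edgeR adjusted p = 0.445). With library totals the value was 0.30 and passed (adjusted p = 0.0152), so the absence of a call depended on the scaling. Per count of Hnrnpa2b1, Hnrnpa1 had 0.354, 0.364 and 0.405 counts in the lowest, median and highest IR+Decursin library, all above the SHAM range. As a share of the summed FPKM of the family, which also needs no library scaling, Hnrnpa1 made up 8.28% to 9.66% in SHAM, 9.98% to 12.0% in IR and 9.19% to 10.5% in IR+Decursin. By that share IR and SHAM did not overlap, and IR+Decursin overlapped both. The same IR+Decursin libraries entered the comparison that put Hnrnpa1 forward, so their values for Hnrnpa1 are not independent of that choice.

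Those that fell in IR+Decursin were Hnrnpa2b1, Srsf5 and Hnrnpdl. These calls did not all hold without the Xist libraries, where 1 member was called lower, against 8.9% of genes. Hnrnpa2b1 had 356, 452 and 484 CPM in the lowest, median and highest library, all 6 below every SHAM library (-0.29 ± 0.08, edgeR adjusted p = 0.0105), and its value was -0.06 with library totals (adjusted p = 0.618). Srsf5, an SR protein with 2 RNA-recognition motifs, had 153, 191 and 219 CPM in SHAM, 147, 191 and 201 in IR and 121, 142 and 172 in IR+Decursin. SHAM and IR spanned nearly the same range for Srsf5, and 4 of 6 IR+Decursin libraries were below every library of SHAM. The fall against SHAM was 0.33 on the log2 scale (SE 0.11, edgeR adjusted p = 0.0234), and -0.12 with library totals did not pass (adjusted p = 0.427). It was lost without SHAM 1, SHAM 3, IR+Decursin 2 or IR+Decursin 5. Hnrnpdl had 82.3, 90.4 and 97.8 CPM (-0.23 ± 0.08, edgeR adjusted p = 0.0478), did not pass without IR+Decursin 5 and 6 (adjusted p = 0.0589) and kept its call in 7 of 18 fits with 1 library left out, which made it the least stable of these 6 calls.

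**Figure D3:**
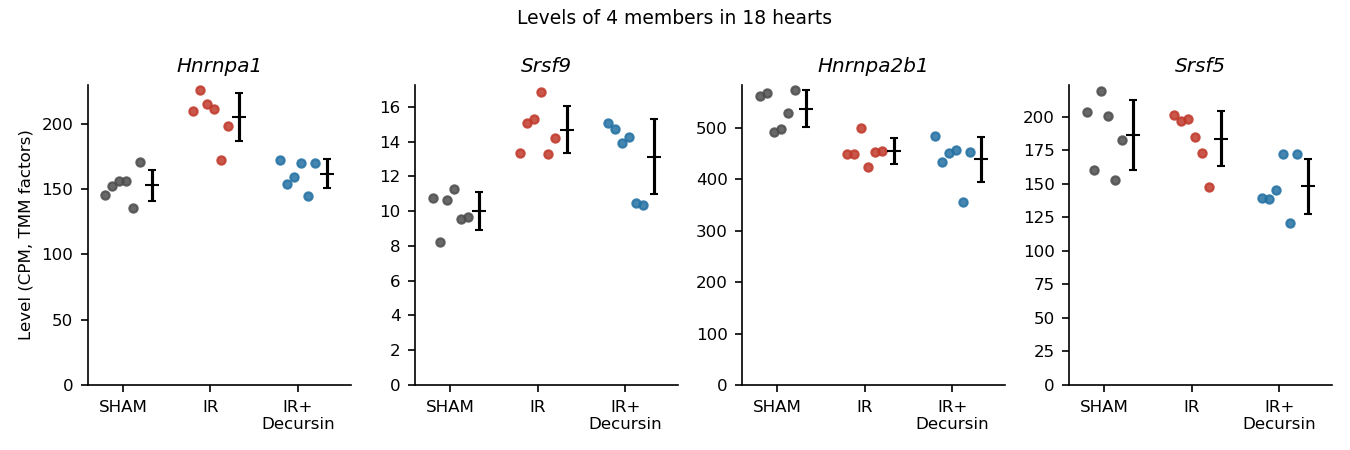
Level in CPM with TMM factors of Hnrnpa1, Srsf9, Hnrnpa2b1 and Srsf5 in each of 18 hearts (points), with the mean and SD of each group in black. Hnrnpa1 lies at 172 to 226 CPM in IR and at most at 171 in SHAM, and the mean of Srsf5 is lowest in IR+Decursin.

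IR+Decursin and IR are compared here as a description, since this contrast put Hnrnpa1 forward. Of all genes tested, 0% were called higher and 0% lower by edgeR, although 2712 had an unadjusted p under 0.05; DESeq2 called 345 genes higher and 84 lower. Without IR+Decursin 1 edgeR called 696 genes higher and 280 lower, and without IR+Decursin 4 it called 2 and 0. The log2 fold change of Hnrnpa1 was -0.35 ± 0.08, and 5 of 6 IR+Decursin libraries were below every IR library. It ran from -0.39 to -0.31 when 1 library was left out, was -0.30 without the Xist libraries, -0.32 without IR+Decursin 5 and 6 and -0.43 with library totals. Hnrnpa1 was chosen for this difference, so its size and stability here lend it no support. Srsf5 followed at -0.31 ± 0.11, with 4 of 6 libraries below every IR library. Hnrnph3, Srsf11, Hnrnpa3, Srsf7, Hnrnpm and Srsf9 stood at -0.20, -0.19, -0.19, -0.18, -0.16 and -0.16, and Srsf9 at -0.02 without IR+Decursin 5 and 6. Srsf4 at 0.03 and Hnrnpl at 0.01 were the 2 members above 0, so that 28 of 30 were below it, against 53.0% of all genes. Hnrnpm, above every SHAM library in IR, had 71.1, 85.1 and 94.0 CPM in the lowest, median and highest IR+Decursin library, and 5 of 6 were below every IR library; the lowest were IR+Decursin 6 at 71.1 and IR+Decursin 5 at 72.4. Srsf4 had 28.3, 30.2 and 38.8 CPM in IR and 29.3, 30.8 and 35.5 in IR+Decursin, and Hnrnpl, a binder of CA repeats, had 123, 139 and 153 in IR and 122, 132 and 175 in IR+Decursin. Both genes overlapped between the groups almost fully. The median member was at -0.10 and the median gene at -0.02, and without IR+Decursin 5 and 6 they were at -0.04 and -0.01. Hnrnpa2b1 was at -0.05 ± 0.08, with nearly equal medians of 451 and 452 CPM in IR and IR+Decursin.

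Within groups the family varied by library. In IR, 18 to 25 of 30 members were above the SHAM mean in each library with TMM factors. The IR+Decursin libraries were less alike: 23 members were above the SHAM mean in IR+Decursin 1, 19 in both IR+Decursin 2 and 4, 12 in IR+Decursin 3, 9 in IR+Decursin 5 and 7 in IR+Decursin 6. SHAM libraries themselves spread from 9 to 22. With library totals SHAM libraries had 3 to 26 members above the SHAM mean, IR libraries 25 to 30, IR+Decursin 6 had 4 and the other 5 IR+Decursin libraries 18 to 29. On that scale the median gene was itself at 0.31 in IR and 0.22 in IR+Decursin against SHAM. The same count over all genes was not taken for each library, so these counts are not read as a trait of the family. IR+Decursin 5 and 6, lowest by the TMM count, are the libraries with fibroblast markers near the SHAM range. IR+Decursin 6 is also the library with the most Gm26917 counts and a TMM factor of 0.831, against 1.03 to 1.12 in the other 5 of its group; the part of these in its values was not tested.

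**Figure D4:**
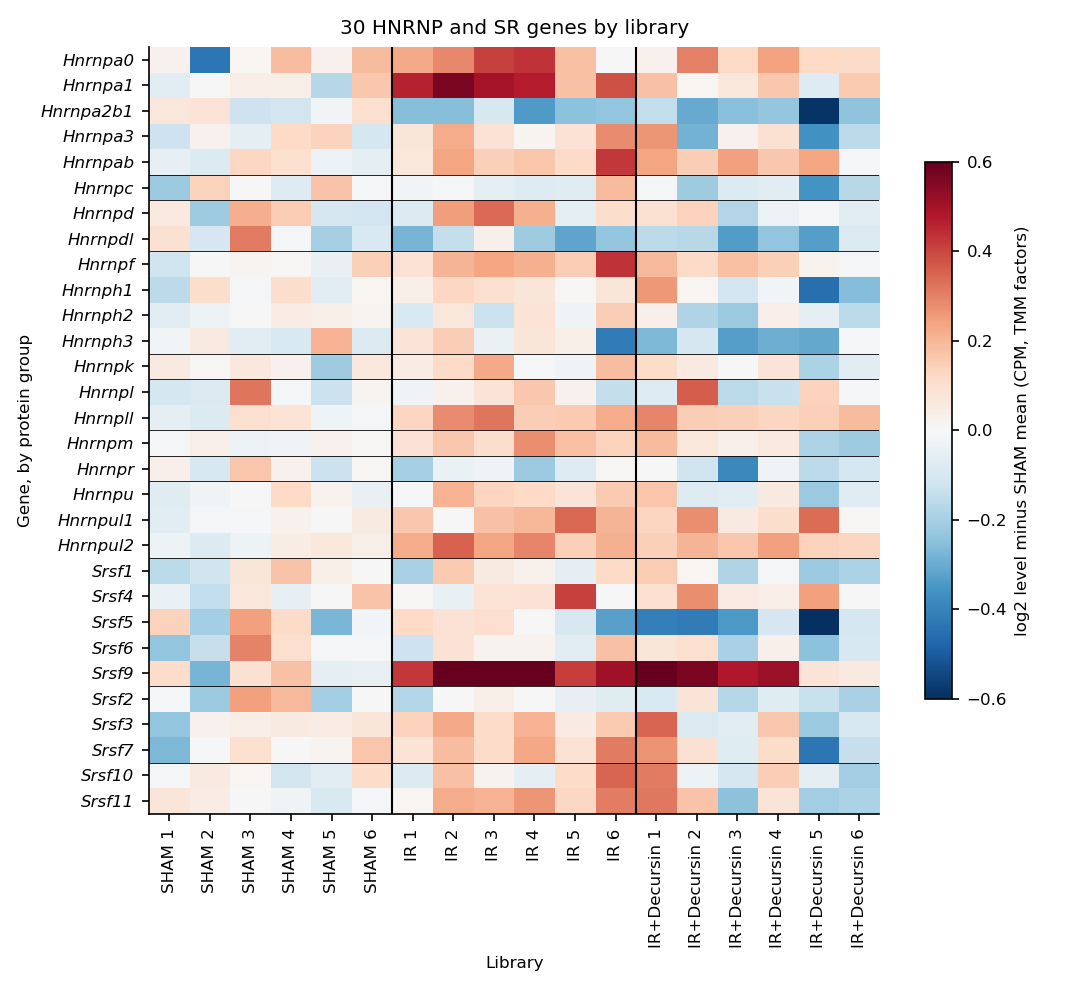
Log2 level of 30 members in each library minus the SHAM mean of the gene (CPM with TMM factors, colour limited to -0.6 to 0.6), rows ordered by protein group. Hnrnpa1 is red across IR and pale in IR+Decursin, Srsf9 is red in IR and in 4 of 6 IR+Decursin libraries, and Hnrnpa2b1 is blue in both injured groups.

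Other genes of the splicing machinery were taken as 6 lists. Their counts in IR are to be read against the 25.3% of all genes called higher and 21.7% called lower, and those in IR+Decursin against 17.5% and 11.8%. Among 28 further hnRNP-type RNA-binding proteins, 7 rose and 2 fell in IR, with a median of 0.05. Ptbp1, a repressor that binds pyrimidine tracts, rose by 0.80 ± 0.12 (edgeR adjusted p = 2.57e-05) and its paralogue Ptbp3 by 0.75 ± 0.17 (adjusted p = 0.00114). With library totals these were at 1.11 and 1.06. The neuronal paralogue Ptbp2 fell by 0.34 on the log2 scale with TMM factors (SE 0.10, edgeR adjusted p = 0.00660), but was at -0.03 with library totals (adjusted p = 0.853). In IR+Decursin 3 rose and 1 fell with TMM factors, and Ptbp1 was 0.61 above SHAM. Of 25 SR-related and exon-definition proteins, 7 rose and 0 fell in IR (median 0.08), among them the spliceosome scaffold Srrm2 (0.32 ± 0.07, edgeR adjusted p = 0.00112) and the enhancer-binding Tra2a (0.35 ± 0.10, adjusted p = 0.00632). In IR+Decursin edgeR called 0 of the 25 higher and 0 lower, with 3 higher and 3 lower at an unadjusted p under 0.05, and DESeq2 called 1 in each direction.

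The 12 SR kinases and import factors, which phosphorylate SR proteins and carry them into the nucleus, held 0 higher and 3 lower genes in IR by edgeR and by DESeq2, with a median of 0.00 and 1 higher gene at an unadjusted p under 0.05. Srpk3, the muscle-enriched SR protein kinase, fell by 0.66 on the log2 scale (SE 0.12, edgeR adjusted p = 0.000252) and Srpk2 fell by 0.36 (SE 0.08, adjusted p = 0.00103). With library totals Srpk3 was at -0.35 (edgeR adjusted p = 0.0109), whereas Srpk2 was at -0.04 and did not pass (adjusted p = 0.677). In IR+Decursin 1 of the 12 fell with TMM factors. The core spliceosome list gave 6 higher and 10 lower of 58 (median 0.01), with Dhx38 at 0.42 and Prpf19 at -0.52. Of the tissue-type splicing regulators, 1 of 20 tested rose and 9 fell (median -0.17). Rbfox1, a regulator of muscle exons, fell by 0.81 on the log2 scale (SE 0.16, edgeR adjusted p = 0.000406), and Rbpms2, which is rich in heart muscle, fell by 0.67 (SE 0.11, adjusted p = 6.17e-05). In IR+Decursin 0 rose and 1 fell of these 20 in edgeR, with 1 higher gene at an unadjusted p under 0.05 and 0 in DESeq2. Of 12 nonsense-mediated decay factors, 2 rose and 2 fell in IR, with a median of 0.05.

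With library totals the same lists gave 20 higher and 0 lower hnRNP-type genes in IR, 23 and 0 SR-related genes, 6 and 1 kinases and import factors, 38 and 1 spliceosome genes, 6 and 2 tissue-type regulators and 9 and 0 decay factors. These counts are to be read against the 46.5% of all genes called higher and 7% called lower on that scale. The tissue-type regulators thus kept the lowest median, 0.14 against 0.31 for all genes. Of 18 cardiomyocyte markers, 12 fell in the same hearts with library totals and 18 with TMM factors. The part of cell make-up in these lists was not tested.

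**Figure D5:**
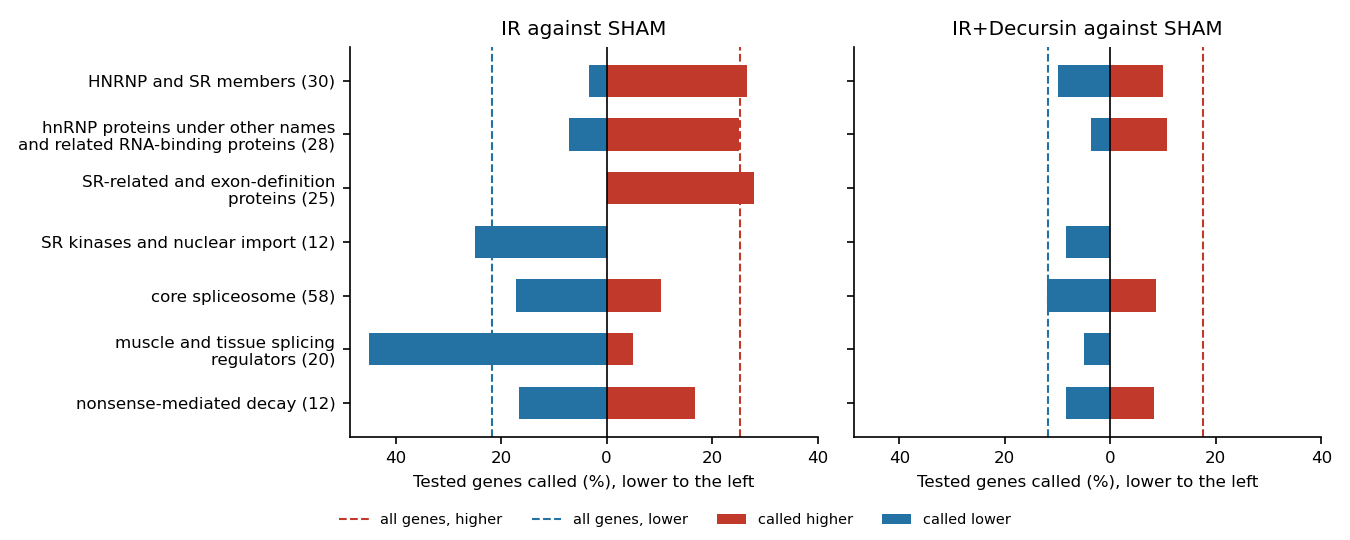
Share of tested genes called higher (red, to the right) and lower (blue, to the left) against SHAM with TMM factors, for the 30 members and 6 lists of splicing and decay genes, with the number tested in brackets; dashed lines are the shares over all genes. In IR the tissue-type regulators have 9 of 20 genes called lower, and the members have 8 of 30 called higher, near the line for all genes.

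Promoter sequences were read from RefSeq for the mouse build GRCm38.p6, which is older than the GRCm39 build of the counts, for 29 of 31 members. The 250 bases before the annotated start are shown for Srsf9 and Hnrnpa1, which had the largest rises in IR, for Hnrnpa2b1, which fell in IR, and for Srsf5, which had the largest fall in IR+Decursin. Capitals mark the CCAAT box with the letters CCAAT, the GC box with the letters GGGCGG and the ETS core with the letters CCGGAA, each also as its reverse complement, and in Srsf5 the last GC box and ETS core share a base.
Hnrnpa1, chr15:103240147-103240396, plus strand: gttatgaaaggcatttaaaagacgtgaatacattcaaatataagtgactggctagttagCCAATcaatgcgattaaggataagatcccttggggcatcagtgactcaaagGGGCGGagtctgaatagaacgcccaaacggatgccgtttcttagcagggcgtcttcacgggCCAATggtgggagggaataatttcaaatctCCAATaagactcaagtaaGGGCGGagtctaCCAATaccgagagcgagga
Hnrnpa2b1, chr6:51469895-51470144, minus strand: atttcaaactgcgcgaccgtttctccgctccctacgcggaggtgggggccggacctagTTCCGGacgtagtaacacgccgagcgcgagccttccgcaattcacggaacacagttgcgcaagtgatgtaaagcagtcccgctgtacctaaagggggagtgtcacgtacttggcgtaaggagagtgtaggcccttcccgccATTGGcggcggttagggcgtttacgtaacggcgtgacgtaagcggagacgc
Srsf9, chr5:115326927-115327176, plus strand: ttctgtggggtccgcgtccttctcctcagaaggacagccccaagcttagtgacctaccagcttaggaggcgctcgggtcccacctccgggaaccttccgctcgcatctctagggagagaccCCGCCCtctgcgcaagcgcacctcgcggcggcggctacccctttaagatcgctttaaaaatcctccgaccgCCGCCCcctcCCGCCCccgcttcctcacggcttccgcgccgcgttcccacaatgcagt
Srsf5, chr12:80945249-80945498, plus strand: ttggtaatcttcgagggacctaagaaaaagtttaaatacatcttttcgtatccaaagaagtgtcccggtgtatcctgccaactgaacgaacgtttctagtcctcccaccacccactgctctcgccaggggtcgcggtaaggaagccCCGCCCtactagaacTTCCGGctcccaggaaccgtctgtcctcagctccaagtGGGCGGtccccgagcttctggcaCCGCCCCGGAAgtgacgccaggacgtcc

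These windows differed in make-up. The Hnrnpa1 window held 4 CCAAT matches and 2 GC box matches and was 46.0% G or C, the lowest of the 41 windows of members. At least 4 CCAAT matches occurred in 1.24% of windows of tested genes, and another member window had as many. The Srsf9 window was 65.2% G or C and held GC box matches alone, and the Hnrnpa2b1 and Srsf5 windows were at 59.6% and 56.8%. Over all member windows the median was 68.0% G or C, against 59.2% for tested genes. The 41 member windows came from 29 genes, and the 15066 windows of tested genes from 11753. Windows of the same gene can overlap, as in Hnrnpa2b1, so the shares that follow count windows and not genes. The GC box occurred in 80.5% of member windows, 53.7% of windows of tested genes and 32.7% of all windows. The ETS core occurred in 36.6%, 19.6% and 12.0% in the same order, and CCAAT in 48.8%, 34.4% and 33.8%. The E-box CACGTG was at 7.32%, 7.91% and 6.02% and TATAAA at 7.32%, 6.96% and 12.4%. Hnrnpa1 and Hnrnpa2b1, which differed in direction with TMM factors, both held CCAAT, and these matches are letters in a window, not measured sites.

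Several members share a promoter region with a gene on the other strand. In the same RefSeq build, 10 members had a head-to-head neighbour whose start lay within 1000 bases, a distance chosen after the data were seen, and 9 of the neighbours were tested. The neighbour of Hnrnpa1 is Cbx5, which encodes a heterochromatin protein. Cbx5 was at -0.00 ± 0.06 in IR (edgeR adjusted p = 0.971) while Hnrnpa1 rose by 0.43. Cbx3, beside Hnrnpa2b1, was at 0.13 (edgeR adjusted p = 0.246). Gla, the lysosomal alpha-galactosidase gene beside Hnrnph2, rose by 1.63 ± 0.27 (edgeR adjusted p = 9.84e-05), whereas Hnrnph2 was at 0.01. Mfsd11, beside Srsf2, rose by 0.21 ± 0.08 (adjusted p = 0.0419) and Enoph1, beside Hnrnpdl, by 0.28 ± 0.11 (adjusted p = 0.0496). Of the 9 tested neighbours, 3 were called higher and 0 lower in IR, against 25.3% and 21.7% of all genes. In each of these 5 pairs either the member or the neighbour was called in IR with TMM factors, and not both. In the other tested pairs neither was called. Whether such pairs move together was not tested. The labels do not say whether the counting used strand, so reads of overlapping ends may be shared.

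Many members have annotated transcripts that gene counts do not resolve. In the GENCODE annotation of GRCm38, 19 of 31 members (61.3%) had a transcript marked for nonsense-mediated decay, against 27.6% of the 13288 tested genes that matched. A retained-intron transcript was annotated for 22 of 31 (71.0%), against 57.8%. The median member had 7 annotated transcripts and the median tested gene 5. Hnrnpa2b1, Srsf5 and Srsf9 have a transcript of the decay class in this annotation, as does Hnrnpa1, whereas Hnrnpul2 and Hnrnpf have none. A count per gene sums all of these forms, so the values above do not separate productive transcripts from those that are degraded.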

How the data were processed

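RNA-seq was done on hearts of 18 mice. The files deposited by the authors hold raw counts and FPKM values, each by gene symbol and library. Per the submitters' processing notes, fastp, HISAT2, HTSeq and the build GRCm39 were used. Order, versions, strand setting and handling of multi-mapped reads were not given in the sources used here. Deposited FPKM values scale counts to gene length and library total alone, so they carry no TMM factor.

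Counts were fitted with edgeR 4.0.16 in R 4.3.3: filterByExpr by group, TMM factors, 1 robust quasi-likelihood fit of all 18 libraries with 15 residual degrees of freedom, a two-sided F-test per comparison, and Benjamini-Hochberg adjustment over 15088 genes, called under 0.05. CPM are counts per 1 M of TMM-scaled library size. The test was tried on simulated counts with known changes. Alternatives used DESeq2 1.42.0, limma 3.58.1 on log2(FPKM + 1) or log2(FPKM + 0.1), voom weights, other scalings and filters, and left-out libraries.

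Members and lists were chosen with earlier results of these data known. Values by library are given for Hnrnpa1, for up to 5 members with the smallest adjusted p in each direction in IR against SHAM, and for 2 in each direction in IR+Decursin against IR. From each list, genes were named from the 3 with the smallest adjusted p in each direction. Same-numbered animals of different groups did not deviate together, so the numbers were not used as pairs. Promoter sequences come from RefSeq (GRCm38.p6) and were matched by symbol.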

Additional observations from a re-analysis of the deposited data

Results flagged for a closer look

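Dixon's test was run on 39 groups of 6 values, those of the 13 members with values by library in 3 groups, and by chance it marks about 1 in 20 such groups. It marked 3. Hnrnpll in IR+Decursin 1 had 28.7 CPM, against 25.6 to 26.8 in the other 5 libraries of its group. Srsf4 in IR 5 had 38.8 CPM, against 28.3 to 31.1 in the other IR libraries. Hnrnpl in SHAM 3 had 170 CPM, against 125 to 138 in the other SHAM libraries, and the log2 fold changes of Hnrnpl against SHAM are near 0 and change sign with the settings given below.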

How the results depend on the processing

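RLE and upper-quartile factors, a minimum of 1 CPM in 6 libraries, a fit of only the 2 groups compared, DESeq2 and voom weights left the counts of members called against SHAM within 1.5 times. Library totals and the 3 FPKM settings gave 26 higher and 0 lower in IR and 9 higher and 0 lower in IR+Decursin. With library totals 46.5% of all genes were called higher and 7% lower in IR, and 31.7% and 2.5% in IR+Decursin. With log2(FPKM + 1), 6901 of 15088 genes were called higher and 1089 lower in IR, and 3936 and 395 in IR+Decursin. TMM without mitochondrial genes gave 5 higher and 2 lower in IR, against 23.8% of all genes in each direction. With no filter on low counts, 0 were lower in IR and 1 higher in IR+Decursin, against 2936 and 2460 of 25731 genes. Without the Xist libraries 5 were higher and 2 lower in IR, and 1 higher and 1 lower in IR+Decursin. Of all genes, 21% and 16.9% were then called in IR, and 15.4% and 8.9% in IR+Decursin. Without IR+Decursin 6 and IR 1, 1 was higher in IR+Decursin, against 2758 of 15200 genes. Without IR+Decursin 5 and 6, added after seeing the data, 9 were higher and 1 lower in IR, and 2 higher and 2 lower in IR+Decursin. The shares of all genes were then 25.7% and 22.1% in IR, and 19.8% and 15.7% in IR+Decursin.

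Leaving out 1 library gave 5 to 10 higher and 1 to 2 lower members in IR, and 1 to 4 higher and 1 to 4 lower in IR+Decursin. Over all 15177 to 15269 genes tested, the same fits called 3574 to 3881 higher and 3022 to 3549 lower in IR. For IR+Decursin they called 2169 to 2972 higher and 1292 to 2158 lower. In IR+Decursin against IR, a description because it chose the family, the number of lower members was 0 to 1 with 1 library left out and 1 with DESeq2. Of all genes, 280 of 15207 were lower without IR+Decursin 1, the fit with 1 lower member, and 84 of 11247 in DESeq2. Nothing is read from these counts. The fewest higher in IR, 5, came without SHAM 1 or SHAM 2, and 2 were lower in IR without SHAM 5 or IR 3. In IR+Decursin 1 was higher without SHAM 1, SHAM 2 or IR 1, and 1 was lower without SHAM 1, SHAM 3, IR+Decursin 2 or IR+Decursin 5. The cause was not tested.

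Replicate numbers did not pair the samples: over 18 same-numbered pairs the correlation of deviations ran from -0.52 to 0.41, and 3 were above 0.1. With the replicate block 5 members were higher in IR and 1 in IR+Decursin, against 3591 and 2385 of 15088 genes.

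These log2 fold changes changed sign. With library totals and FPKM, IR values became 0.071, 0.068 and 0.069 for Hnrnpa2b1, 0.12 and 0.11 for Hnrnpdl, 0.22, 0.18 and 0.21 for Hnrnpr, 0.26 for Srsf2 and 0.29 for Srsf5, and IR+Decursin values 0.095, 0.072 and 0.084 for Hnrnpr, 0.12 for Srsf2 and 0.23, 0.20 and 0.21 for Hnrnpm. Hnrnpl in IR became -0.011 without mitochondrial genes, -0.035 without the Xist libraries and -0.0036 without IR+Decursin 6 and IR 1. In IR+Decursin it became -0.00095 without mitochondrial genes, -0.053 without the Xist libraries and -0.0078 with voom weights. Hnrnpm in IR+Decursin became 0.0061 with no filter, 0.014 with 2 groups or voom weights, 0.012 without IR+Decursin 6 and IR 1, 0.088 without IR+Decursin 5 and 6, and 0.0013 with the CPM minimum. With 1 library left out, Srsf5 in IR ran from -0.078 to 0.033, Hnrnpl from -0.014 to 0.086 in IR and -0.054 to 0.094 in IR+Decursin, and Hnrnpm in IR+Decursin from -0.042 to 0.038. Srsf9 rests on the fewest counts of the tested members, and the sources of its error were not separated.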
